A study of Mus musculus with 12 samples.

Results

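Hemoglobin and red cell genes were followed in brain and liver of mice with and without the vault RNA gene Vaultrc5. The set holds 6 genes, found by their symbols among the 55450 genes of the deposited table: the alpha globins Hba-a1 and Hba-a2, the beta globins Hbb-bs and Hbb-bt, the heme synthesis enzyme Alas2 and the membrane protein Slc4a1. The series sequenced total RNA from male mice aged 7 to 9 weeks in 12 libraries, 3 in each of 4 groups: wild-type brain, Vaultrc5-/- brain, wild-type liver and Vaultrc5-/- liver. The genotype labels call the control animals wild-type and the protocol calls them Vaultrc5+/+, while their sample titles carry the word flx. The labels do not say how the deletion was made, and no other allele or treatment is named for either genotype. The labels do not say whether each library came from a separate animal, whether brain and liver of a replicate number came from the same animal, or whether the organs were flushed of blood, so the p-values below measure only the spread between these samples.

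Hemoglobin is a tetramer of alpha and beta globin chains, each holding a heme group, and it fills the red cells of the blood. Adult mice carry a pair of alpha globin genes and a pair of beta globin genes, and young red cells (reticulocytes) still hold the messenger RNA of these genes, so an organ that contains blood yields globin reads. Lower levels of globin messenger RNA have also been described in neurons, glia and other cells outside the red cell lineage. Ribo-Zero Plus, the depletion step that the labels name, is a reagent directed at ribosomal RNA and, by its design for human blood, at globin messenger RNA. How much mouse globin RNA it removed from these libraries was not tested, so the globin levels below are those left after depletion. In whole tissue, fewer cells of a type and less RNA per cell cannot be told apart.

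The near-identity of the globin copies decides how their reads can be read, so the stretch around the base that tells each pair apart is shown. Hba-a1 (ENSMUSG00000069919.7, GRCm38 chromosome 11, 32283511 to 32284465, plus strand) and Hba-a2 (ENSMUSG00000069917.7, chromosome 11, 32296489 to 32297298, plus strand) have coding sequences of 429 nt that differ at 1 base, C381T, counted from 1 at the first base of the start codon, with the base of Hba-a1 given first. Hbb-bs (ENSMUSG00000052305.6, chromosome 7, 103826534 to 103828096, minus strand) and Hbb-bt (ENSMUSG00000073940.3, chromosome 7, 103812524 to 103813996, minus strand) have coding sequences of 444 nt that also differ at 1 base, C417T, with the base of Hbb-bs first. Each change falls at codon position 3. The lines below give coding bases 366 to 396 of the alpha pair and 402 to 432 of the beta pair from the GENCODE M21 transcripts, 5′ to 3′, with the differing base in capitals.
Hba-a1: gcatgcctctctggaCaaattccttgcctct
Hba-a2: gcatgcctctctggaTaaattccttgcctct
Hbb-bs: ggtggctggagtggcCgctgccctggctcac
Hbb-bt: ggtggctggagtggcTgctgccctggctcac

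Outside that base, the copies differ in their untranslated ends. Of all 50 nt stretches of the Hba-a1 transcript (699 nt), 67.5% occur unchanged in that of Hba-a2, and 86.9% of the Hba-a2 stretches (554 nt) occur in Hba-a1. For the beta pair, 65.8% of the Hbb-bs stretches (628 nt) occur in Hbb-bt and 58.3% of the Hbb-bt stretches (703 nt) in Hbb-bs. The deposited counts show how such shared reads were handled. Hba-a1 had a fractional count in 10 of 12 libraries and Hbb-bs in 12 of 12, yet the sum within each pair was a whole number in 12 of 12 libraries (tolerance 0.02). Alas2 and Slc4a1 were whole in 12 of 12 libraries. Reads shared by a pair were thus divided between its members, and the level of a single copy is uncertain beyond the replicate error, while the pair sums are not touched by the division.

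The copies of a pair were also compared upstream of their starts. The Hba-a1 and Hba-a2 windows of 250 nt before the RefSeq start are identical over all 247 aligned nt, whereas those of Hbb-bs and Hbb-bt share 184 of 234 aligned nt, or 78.6%. Hba-a2 and Alas2 are shown, as the sequence common to the alpha pair and as that of a member that is no globin. Both are RefSeq sequences on GRCm38.p6, plus strand, kept to the bases before the annotated gene: chr11:32296242-32296488 (247 nt) for Hba-a2 and chrX:150547167-150547374 (208 nt) for Alas2. Capitals mark the motif matches described next.
Hba-a2: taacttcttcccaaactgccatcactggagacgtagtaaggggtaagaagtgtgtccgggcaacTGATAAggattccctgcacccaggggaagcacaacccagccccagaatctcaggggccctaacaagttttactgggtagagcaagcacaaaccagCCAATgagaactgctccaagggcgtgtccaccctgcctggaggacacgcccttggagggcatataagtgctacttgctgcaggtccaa
Alas2: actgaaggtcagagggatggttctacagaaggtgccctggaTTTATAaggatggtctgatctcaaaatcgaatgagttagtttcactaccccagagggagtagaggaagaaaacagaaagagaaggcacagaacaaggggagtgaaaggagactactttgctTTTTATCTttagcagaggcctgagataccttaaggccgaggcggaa

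Motifs were searched on both strands of the windows of 250 nt. The erythroid factor GATA1 binds the forms AGATAA (in 9.99% of all 32851 promoter windows) and, with another opening base, TGATAA (in 7.94%), and 16.6% of the windows hold at least 1 of them. The second form was found 183 nt before the start in Hba-a1 and 186 nt before it in Hba-a2. The first form was found 210 nt before the start in Hbb-bs and, on the reverse strand, 86 nt before it in Alas2, while Hbb-bt holds neither. A form bound by the erythroid factor KLF1, CCACACCC, was found in Hbb-bs only, 93 nt before the start, against 3.2% of all windows. The windows of Hba-a1, Hba-a2, Hbb-bs and Hbb-bt, but not that of Alas2, hold the word CCAAT, against 33.8% of all windows. Of the words like a TATA box, TATAAA lies 28 nt before the start in Hbb-bt and, on the reverse strand, 209 nt before it in Alas2, against 12.4% of all windows. The related word ATAAAA lies on the reverse strand of Alas2, 88 nt before the start, where it overlaps the GATA1 form, against 17.0% of all windows. No other spelling of a TATA box was searched, so letters such as catataag, near the end of the Hba-a2 sequence above, were not counted. The matches are of letters and are not measured binding sites.

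Depth and sample identity set the limits of these values. The 6 brain libraries held between 14844971 and 18567381 counts and the 6 liver libraries between 23247449 and 27155480. The floor used here, 3 counts, stands for 0.162 to 0.202 CPM in a brain library (CPM being counts scaled to the library's size) and 0.110 to 0.129 CPM in a liver library. Vaultrc5 had 33 to 48 counts in wild-type liver, 1 to 4 in wild-type brain and 0 in all 6 knockout libraries. Alb, the liver plasma protein albumin, had at least 714287 counts in every liver library, and Snap25, a synaptic protein, at least 31003 in every brain library. Ttr, which the choroid plexus of the brain makes in large amounts, ranged from 5 to 8856 counts over the 6 brain libraries, and its part in the brain values was not tested. Knockout replicate 2 stood apart in its neutrophil markers in both tissues. The 8 neutrophil markers summed to 14.5 CPM in that brain library against 1.27 to 3.37 CPM in the other 5, and to 4.33 CPM in that liver library against 0.272 to 1.19 CPM.

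The alpha globin Hba-a1 was present at low levels in all 12 libraries. Its expected counts in wild-type brain replicates 1, 2 and 3 were 70.85, 56.94 and 40.78, and those in knockout brain were 90, 57.75 and 33. Wild-type livers 1, 2 and 3 had 225.84, 121.31 and 142.88 counts, and knockout livers 285.78, 201.73 and 203.9. Scaled to library size, this gave 3.23 ± 0.944 CPM (SD, n = 3) in wild-type brain, 3.8 ± 1.98 in knockout brain, 6.5 ± 2.64 in wild-type liver and 9.39 ± 1.34 in knockout liver. Every liver library was above every brain library of the same genotype, while the genotypes overlapped within each tissue. For the sum of both alpha copies the wild-type organs met, with 4.64 CPM in brain replicate 1 and 4.6 CPM in liver replicate 2. These CPM are scaled within each tissue and are not on the scale of the fold changes between organs below.

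Hba-a2, the second alpha copy, received far fewer reads. It had 7.15, 2.06 and 2.22 counts in wild-type brain and 0, 2.25 and 0 in knockout brain, values around or under the floor of 3 counts. Wild-type livers had 2.16, 3.69 and 12.12 counts of it, and knockout livers 33.22, 25.27 and 39.1. The 3 knockout livers therefore lay above the 3 wild-type livers without overlap, at 1.33 ± 0.302 CPM (SD, n = 3) against 0.233 ± 0.205 CPM. Of all alpha globin counts, Hba-a2 took 5.67% ± 2.93 (SD, n = 3) in wild-type brain, 1.11% ± 1.92 in knockout brain, 3.94% ± 3.49 in wild-type liver and 12.5% ± 3.12 in knockout liver. The shares in liver did not overlap either, with 0.877% to 7.74% for wild-type libraries and 10.3% to 16.0% for knockout libraries. In brain the shares ran the other way, with 3.39% to 8.97% for wild-type and 0.0% to 3.33% for knockout libraries. These rest on at most 7.15 counts, and with the counts not rounded the brain ranges overlapped, at 3.49% in a wild-type and 3.75% in a knockout library.

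**Figure D1:**
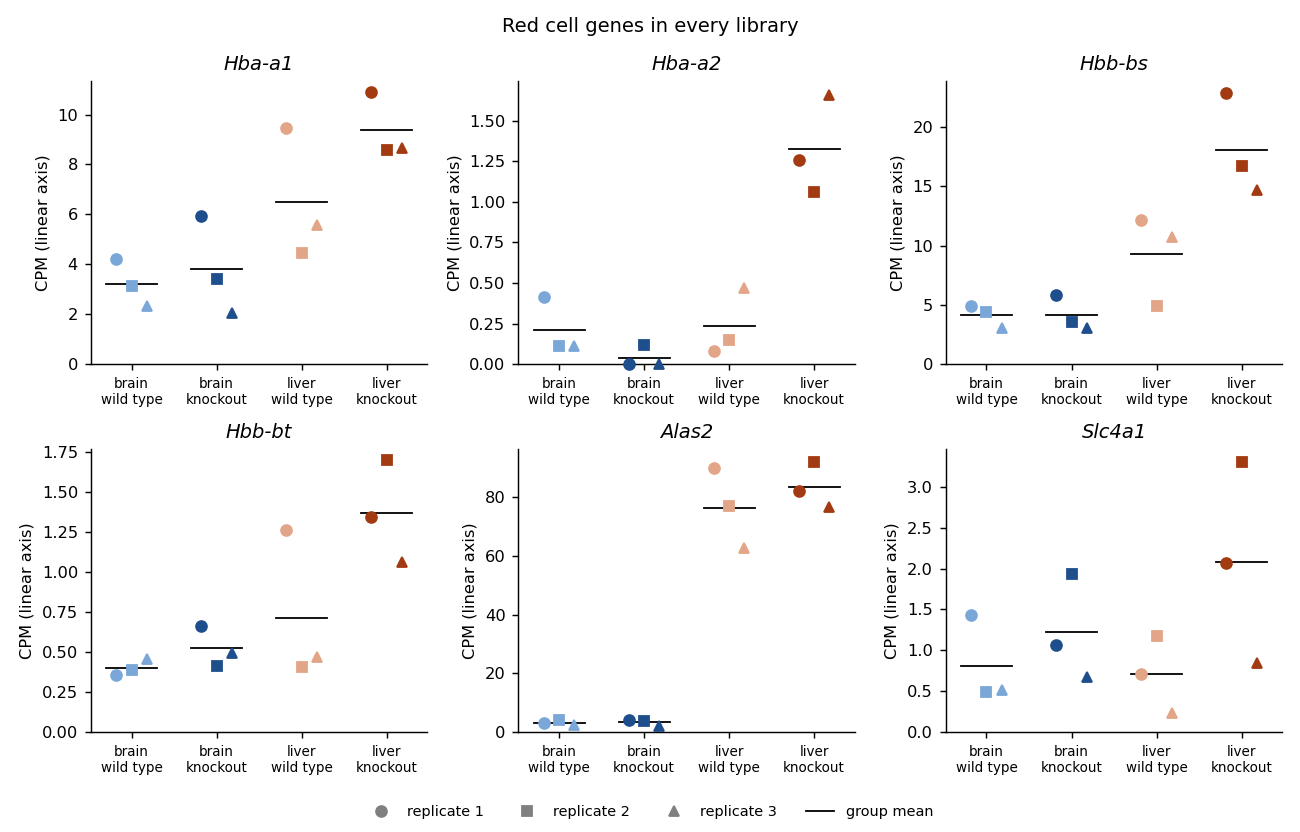
CPM (linear axes from 0) of the 6 red cell genes in the 12 libraries, with a symbol for each replicate and a line at each group mean. Alas2 is at 62.6 to 91.9 CPM in liver and at 2.04 to 4.03 CPM in brain, and Hba-a2 in the 3 knockout livers lies above the other libraries.

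Hbb-bs, the major of the beta globins here, had the highest mean of the globins in all 4 groups. Its counts were 82.16, 79.68 and 54.37 in wild-type brain and 87.85, 59.81 and 48.97 in knockout brain. Wild-type livers had 291.34, 133.32 and 275.06 counts, and knockout livers 599.34, 392.03 and 346.46. The brain groups overlapped, both with a mean of 4.12 CPM, whereas the liver groups did not, with 4.89 to 12.2 CPM for wild-type and 14.7 to 22.9 CPM for knockout libraries. Hbb-bt, the minor beta globin, had 5.84 to 7.63 counts in wild-type brain and 7.19 to 10.15 in knockout brain. Its liver counts were 29.66, 10.68 and 11.94 for the wild type and 34.66, 39.97 and 24.54 for the knockout, so the genotypes overlapped in both tissues.

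Pair sums, which the division of shared reads does not touch, gave the ratio of beta to alpha chains at the RNA level. Alpha counts were 228, 125 and 155 in wild-type liver and 319, 227 and 243 in knockout liver. Beta counts were 321, 144 and 287 in wild-type liver and 634, 432 and 371 in knockout liver. The beta to alpha ratio was 1.35 ± 0.191 (SD, n = 3) in wild-type brain, 1.31 ± 0.361 in knockout brain, 1.47 ± 0.354 in wild-type liver and 1.81 ± 0.245 in knockout liver. The genotypes overlapped within each tissue, and so did the tissues within each genotype, while the range in knockout liver (1.53 to 1.99) lay above that in wild-type brain (1.13 to 1.47). The ratio was above 1 in every library. Hbb-bt took 9.26% ± 3.22 (SD, n = 3) of the beta counts in wild-type brain, 11.6% ± 2.14 in knockout brain, 7.06% ± 2.63 in wild-type liver and 7.17% ± 1.91 in knockout liver, again with overlapping ranges between the genotypes.

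**Figure D2:**
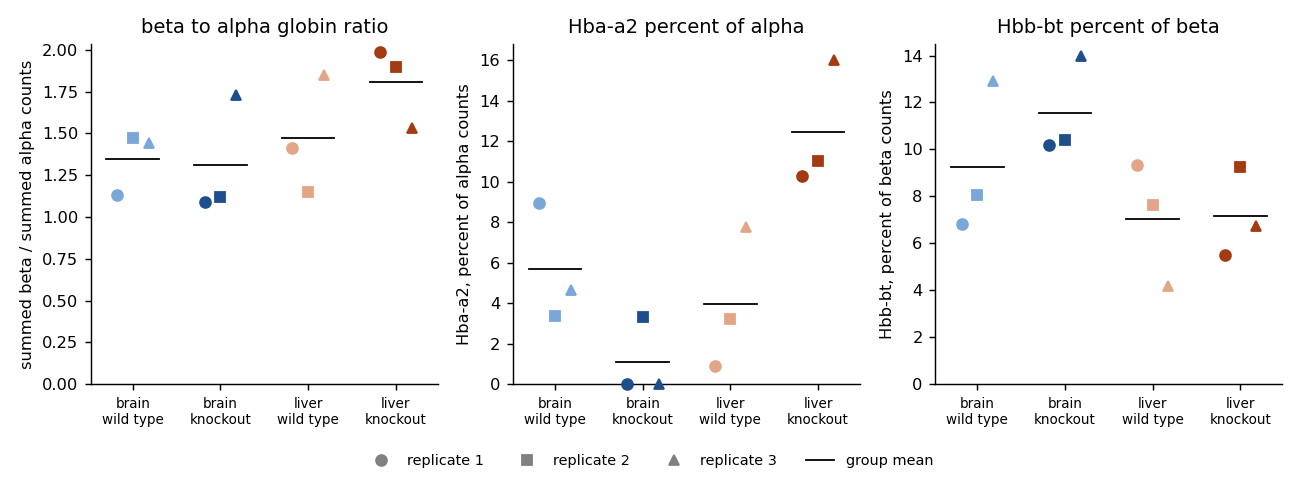
Ratio of summed beta to summed alpha globin counts (left), the Hba-a2 percentage of alpha globin counts (middle) and the Hbb-bt percentage of beta globin counts (right) in the 12 libraries, with a line at each group mean. The Hba-a2 share is 10.3% to 16.0% in knockout liver and 0.877% to 7.74% in wild-type liver, while the beta to alpha ratio and the Hbb-bt share overlap between the genotypes in both tissues.

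Alas2 (ENSMUSG00000025270.13, chromosome X, 150547375 to 150570638, plus strand) encodes the erythroid form of aminolevulinate synthase, the first and rate-limiting enzyme of heme synthesis. It had 50, 72 and 45 counts in wild-type brain and 61, 67 and 33 in knockout brain, but 2140, 2089 and 1609 in wild-type liver and 2144, 2164 and 1803 in knockout liver. The means were 76.4 ± 13.6 CPM (SD, n = 3) for wild-type liver and 83.5 ± 7.81 CPM for knockout liver, and the brain means 3.17 ± 0.718 and 3.34 ± 1.12 CPM. Liver and brain libraries were far apart and the genotypes overlapped in both tissues. Exons of Alas2 share 311 nt with Apex2, a DNA repair gene on the other strand, and it is not given in the sources used here whether the counting used strand. Apex2 ran the other way between the tissues, at 30.2 to 35.4 CPM in brain and 10.9 to 13.8 CPM in liver.

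Slc4a1 (ENSMUSG00000006574.15, chromosome 11, 102348824 to 102366203, minus strand) encodes band 3, the anion exchanger of the red cell membrane that swaps chloride for bicarbonate. It had 24, 9 and 9 counts in wild-type brain, 16, 33 and 11 in knockout brain, 17, 32 and 6 in wild-type liver and 54, 78 and 20 in knockout liver. All groups overlapped, and knockout replicate 2 was the highest library in both tissues. Epb42, protein 4.2 that binds band 3, had 8 counts in the liver library of knockout replicate 2 and 0 to 3 in the other livers. Haptoglobin (Hp), a plasma protein that binds free hemoglobin, had 83485 counts there and 19479 to 36733 in the other livers. The part of these differences in the Slc4a1 result was not tested.

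**Figure D3:**
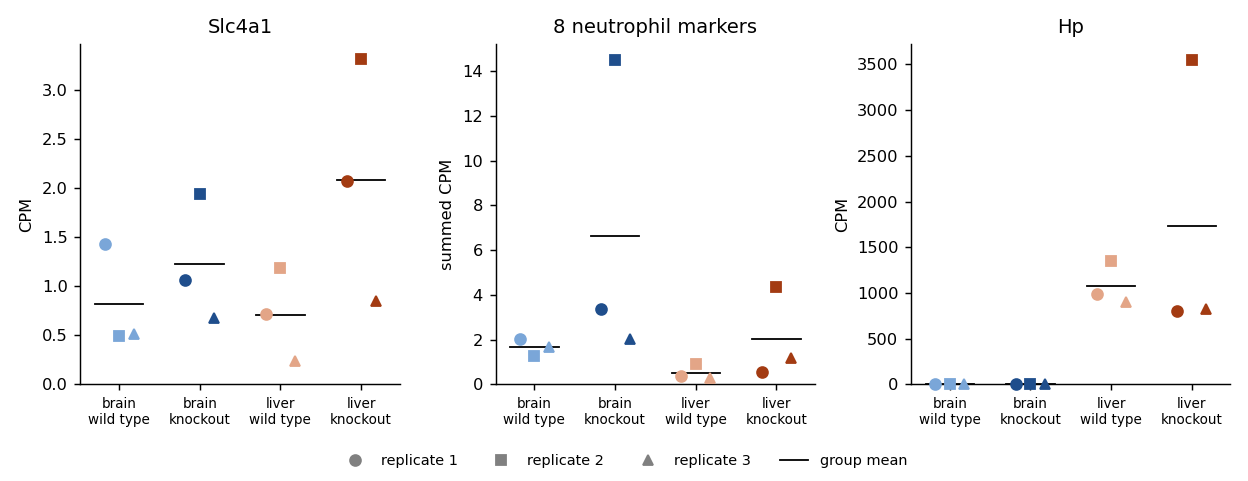
CPM of Slc4a1 and Hp and the summed CPM of 8 neutrophil markers in the 12 libraries (linear axes from 0), with a symbol for each replicate and a line at each group mean. Knockout replicate 2, drawn as a square, is highest for Slc4a1 and for the neutrophil markers in both tissues and for Hp in liver only.

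Levels were ordered per kilobase of exon, since a count grows with the length of a transcript. In brain the mean levels over 6 libraries were 5.37 CPM per kb for Hbb-bs, 4.33 for Hba-a1, 1.35 for Alas2, 0.656 for Hbb-bt, 0.208 for Slc4a1 and 0.189 for Hba-a2. The ranges of Hbb-bs and Hba-a1 overlapped, as did those of Alas2 and Hbb-bt, and Slc4a1 and Hba-a2 could not be ordered, with Slc4a1 the higher in 3 of 6 libraries. In liver the order began with Alas2 at 33.3 CPM per kb, ahead of Hbb-bs at 17.8 and Hba-a1 at 9.79, and these 3 genes kept that order in all 6 libraries although neighbouring ranges overlapped. Hbb-bt at 1.48, Hba-a2 at 1.17 and Slc4a1 at 0.285 CPM per kb followed, with overlapping ranges. Hba-a2 had 0.349 CPM per kb against 1.01 for Hbb-bt in wild-type liver and 1.99 against 1.94 in knockout liver, and Hbb-bt was the higher in 4 of 6 livers. Alas2 thus stood below the main globins in brain and above them in liver.

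Whether red cell genes differ between the organs was compared within each genotype. In the wild type, Hba-a1, Hbb-bs and Alas2 were lower in brain than in liver, and Slc4a1 did not pass the test. By the edgeR quasi-likelihood test with TMM scaling, the log2 fold change of brain over liver was -1.85 ± 0.35 (SE) for Hba-a1 (adjusted p = 0.00155), -2.01 ± 0.36 for Hbb-bs (adjusted p = 0.0012) and -5.43 ± 0.22 for Alas2 (adjusted p = 3.51e-07). That of Slc4a1 was -0.66 ± 0.65 (edgeR adjusted p = 0.38), and Hba-a2 and Hbb-bt were too low to be tested. Single libraries moved the Slc4a1 value between -1.34, without wild-type brain replicate 1, and -0.08, without wild-type liver replicate 2. So 3 of the 4 members tested were lower in brain, where 34.7% of the 18850 genes tested were, and 78.6% differed in either direction. The pair sums, free of the division of shared reads, were 3.51-fold higher in liver for alpha and 3.96-fold for beta (edgeR adjusted p-values 0.00166 and 0.00113). The alpha groups overlapped in CPM, which are scaled within each tissue, while these folds use a scaling across the organs.

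Among knockout libraries Hba-a1, Hbb-bs, Alas2 and Slc4a1, the 4 members that reached the low-count filter in brain as well as in liver, were lower in brain. Of all 18785 genes tested, 35.2% were lower in brain and 78.7% differed in either direction. Hba-a2 and Hbb-bt entered the test through the liver libraries, where they are high, so their values are descriptions and are not counted. The log2 fold changes were -2.17 ± 0.37 (SE) for Hba-a1 and -5.50 ± 0.26 for Alas2, with edgeR adjusted p-values of 0.00101 and 1.11e-06. As a description, that of Hbb-bt was -2.23 ± 0.35 (SE). Hbb-bs was 7.98-fold higher in liver, with an SE of 0.30 on the log2 scale (edgeR adjusted p = 5.85e-05). Hba-a2 in knockout brain lay under the floor of 3 counts per library. Against that floor it was at least 7.15-fold higher in knockout liver, in CPM scaled within each tissue. The alpha sum was 5.07-fold and the beta sum 7.62-fold higher in liver (edgeR adjusted p-values 0.000604 and 5.13e-05), without overlap in CPM scaled within each tissue. Slc4a1 changed by -1.61 ± 0.58 (SE; edgeR adjusted p = 0.0343), with groups that overlapped in such CPM. Without knockout liver replicate 2 it was -1.14 with an edgeR adjusted p of 0.12, and the call was also lost without knockout liver replicate 1 (-1.62, adjusted p = 0.0707), knockout brain replicate 1 (-1.49, adjusted p = 0.0989) or knockout brain replicate 3 (-1.32, adjusted p = 0.106). Both comparisons rest on how brain and liver are scaled to each other, since the median log2 difference of all genes was 0.21 with TMM and 1.05 (wild type) or 1.07 (knockout) with library totals. With library totals, calls higher in brain went from 55.8% to 74.4% of all calls in the wild type and from 55.3% to 74.9% in the knockout.

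With library totals the directions of the globins and Alas2 were the same and their sizes smaller. Liver over brain, Hba-a1 was 2.02-fold higher in the wild type in place of 3.61-fold with TMM, Hbb-bs 2.27-fold in place of 4.03-fold and Alas2 24.2-fold in place of 43.2-fold. In the knockout the values with library totals were 2.45-fold for Hba-a1, 4.35-fold for Hbb-bs and 24.7-fold for Alas2, all with an edgeR adjusted p of 0.0131 or less, and 2.58-fold for Hbb-bt as a description. Slc4a1 turned to a log2 value of 0.18 ± 0.65 (SE; edgeR adjusted p = 0.801) in the wild type, and in the knockout to -0.72 ± 0.55 (adjusted p = 0.254). Slc4a1 thus passed the test between the organs with TMM in the knockout and not with library totals, while Alas2 passed with both in both genotypes.

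**Figure D4:**
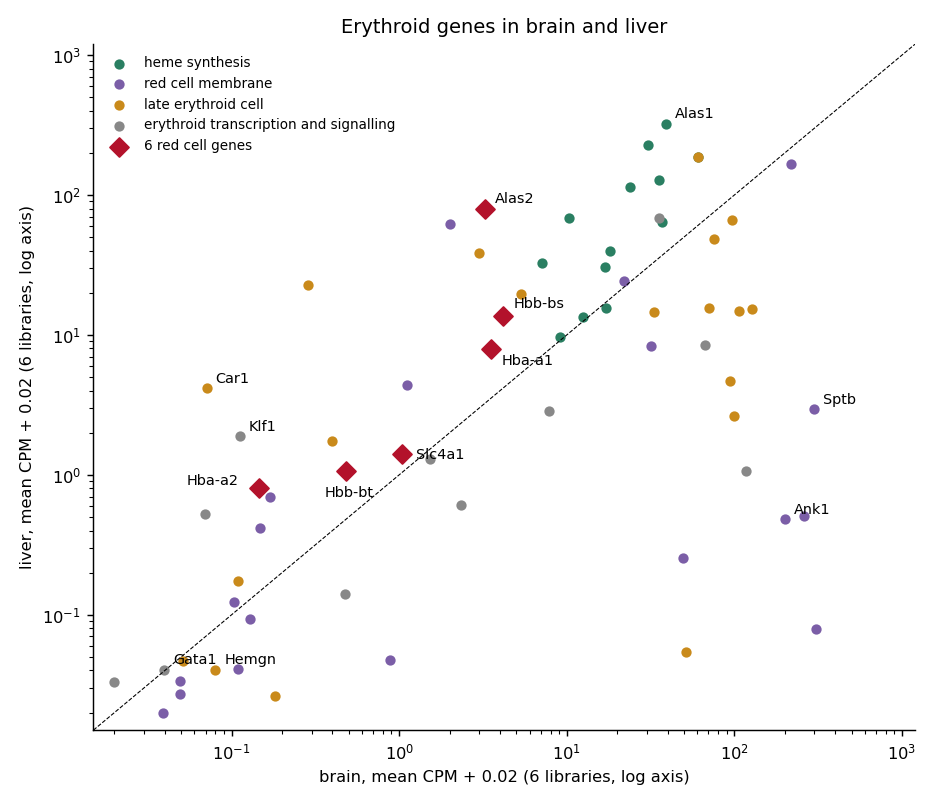
Mean CPM + 0.02 in brain (horizontal, log axis) against liver (vertical, log axis) over 6 libraries per tissue for the 6 red cell genes (diamonds) and the other genes of 4 erythroid lists (circles), with a dashed line of equal CPM. Alas2 lies above the line, at a mean of 79.9 CPM in liver and 3.25 CPM in brain, while Sptb and Ank1 lie far below it.

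The other heme synthesis genes went the same way as Alas2 between the organs. All 13 of them were tested and 13 were lower in brain in each genotype, with a median log2 fold change of -2.45 in the wild type and -2.53 in the knockout, beside 0.21 over all genes. Of all genes tested, 34.7% were lower in brain in the wild type and 35.2% in the knockout. With library totals 10 of 13 were called lower in each genotype and 1 of 13 had a value above 0. Over all genes, library totals called 4000 lower in brain in the wild type and 3888 in the knockout, in place of 6542 and 6611. In the wild type the values ran from -3.70 ± 0.12 (SE) for Slc25a39, a mitochondrial glutathione carrier, to -0.71 ± 0.15 for Ppox, protoporphyrinogen oxidase, so that Alas2 at -5.43 lay outside their range. Alas1, the aminolevulinate synthase of non-erythroid cells, changed by -3.45 ± 0.30 (SE) and had 4311 to 11102 counts in liver. Ferrochelatase (Fech), which inserts the iron into heme, changed by -2.45 ± 0.10 (SE).

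Genes of free hemoglobin and heme clearance were also lower in brain: 7 of 7 in the wild type and 6 of 7 in the knockout, and 6 of 7 in each genotype with library totals. These counts include Hp, with 0 to 27 counts over the brain libraries, and Hpx, with 1 to 5. Both entered the test through the liver libraries, where they are high, so their direction was fixed by the filter. Cd163, the scavenger receptor that takes up hemoglobin bound to haptoglobin, changed by -4.63 ± 0.28 (SE) in the wild type. The red cell membrane list went both ways, as did all genes tested, of which wild-type brain had 43.9% higher and 34.7% lower, and knockout brain 43.5% higher and 35.2% lower. Of 11 genes tested in the wild type, 7 were higher and 3 lower in brain, and of 12 in the knockout 7 were higher and 4 lower. Those higher in brain included Add2, Dmtn, Sptb and Ank1, which encode spectrin skeleton proteins that neurons use as well. In the wild type Sptb changed by 5.72 ± 0.35 (SE) and Ank1 by 7.82 ± 0.66. Aqp1, the water channel of red cells, choroid plexus and other epithelia, changed by -5.67 ± 0.62 (SE). Late erythroid genes went both ways, with 7 higher and 7 lower of 15 in the wild type and 6 and 7 of 15 in the knockout, and with library totals 9 and 6 in each. Brain libraries had 0 to 2 counts of Car1, a carbonic anhydrase of red cells, and liver libraries 70 to 143. Of the 11 erythroid transcription and signalling genes, 7 were tested and 4 were higher and 2 lower in wild-type brain, with 3 and 3 in knockout brain.

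Defining genes of red cell precursors were at or near 0 in both organs. Gata1, the master factor of the erythroid lineage, had 0 to 2 counts in any library, as did Gfi1b, a repressor of that lineage. Hemgn, a nuclear protein of erythroid precursors, Rhag, the Rh-associated glycoprotein, and Tspo2, a late erythroid membrane protein, also had 0 to 2 counts. Klf1, which drives adult beta globin transcription, had 0 to 3 counts per brain library but 35 to 68 per liver library. It stood at 1.99 ± 0.466 CPM (SD, n = 3) in wild-type liver and 1.75 ± 0.361 CPM in knockout liver. The embryonic globin genes Hba-x, Hbb-y and Hbb-bh1 and the related Hbb-bh0, Hbb-bh2 and Hbb-bh3 had 0 counts in all 12 libraries, which allows up to 3 counts each. Hbq1a had at most 5.37 counts in a library and Hbq1b at most 3.

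The effect of Vaultrc5 loss on the red cell genes was compared within each tissue. In brain no member passed the test. Of 18075 genes tested by edgeR 0 were called (0.0%), with 119 genes, or 0.658%, at an unadjusted p under 0.05 and 0 called by DESeq2. Among the 4 members tested, the log2 fold change of knockout over wild type was 0.23 ± 0.42 (SE) for Hba-a1, -0.00 ± 0.31 for Hbb-bs, 0.07 ± 0.32 for Alas2 and 0.60 ± 0.58 for Slc4a1, each with an edgeR adjusted p of 1.00. Slc4a1 entered this test through the knockout libraries, where it is higher, since 1 of 3 wild-type brains reached the filter level, so its value is a description. Single libraries moved Slc4a1 between 0.10, when knockout replicate 2 was left out, and 1.26, when wild-type replicate 1 was. The genotypes overlapped for every member in brain, which does not show that they are alike.

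In liver the 6 members had higher means in the knockout, and none passed the adjusted threshold. Of 15329 genes 0 were called by edgeR (0.0%), with 536, or 3.5%, at an unadjusted p under 0.05, and DESeq2 called 10, none of them a member. The log2 fold changes were 0.54 ± 0.28 (SE) for Hba-a1, 2.48 ± 0.54 for Hba-a2, 0.97 ± 0.36 for Hbb-bs, 0.95 ± 0.46 for Hbb-bt, 0.13 ± 0.14 for Alas2 and 1.54 ± 0.65 for Slc4a1, beside a median of 0.01 over all genes. Of all genes tested, 51.3% had a value above 0. The members' unadjusted edgeR p-values were 0.0961, 0.00206, 0.0349, 0.075, 0.389 and 0.0512 in that order, and the adjusted p was 0.992 for each. Hba-a2 and Slc4a1 reached the low-count filter in too few wild-type livers to be tested on those alone and entered through the knockout livers, where they are high, so their values are descriptions and are not counted. Of the other 4 members, Hbb-bs was under an unadjusted 0.05 in the direction of the knockout, as were 1.81% of all genes, and had every knockout library above every wild-type library, as had 4.72% of all genes. The fold change of Hba-a2 is imprecise, because it rests on 2.16 to 12.12 counts in the wild-type livers and its size depends in part on the prior count of the fit. With a library left out it went from 2.10 without wild-type replicate 1 to 3.45 without wild-type replicate 3. Its edgeR adjusted p ran from 0.387 to 1.00 over the alternatives that kept every library, and by DESeq2 it was 0.0845.

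**Figure D5:**
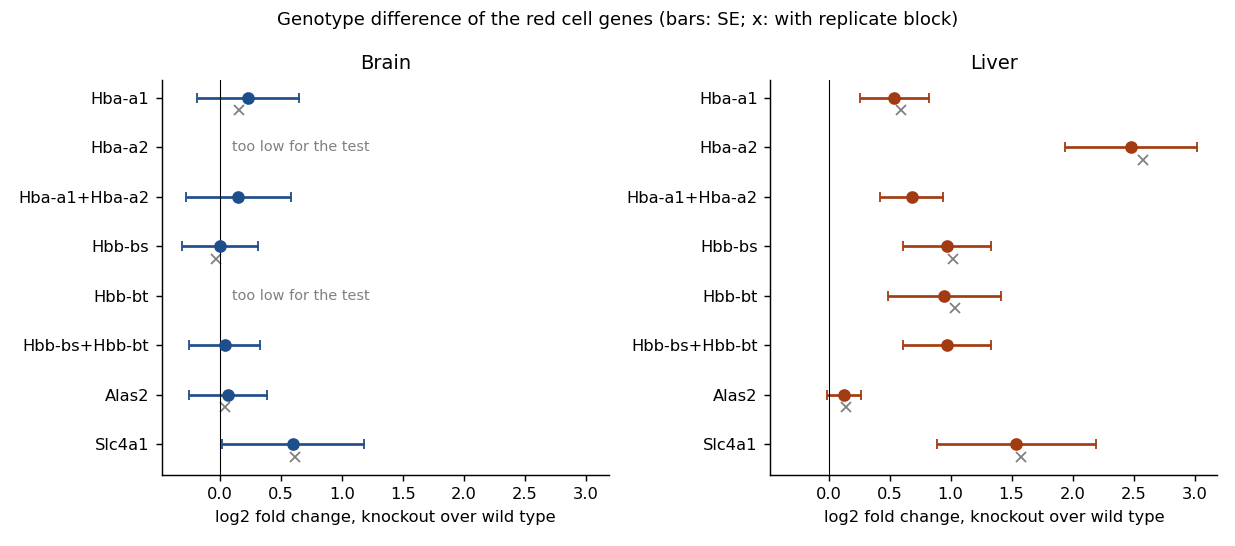
Log2 fold change of knockout over wild type (points, with bars of 1 SE) for the red cell genes and the pair sums in brain (left) and liver (right), with a cross for the fit that includes the replicate number. In liver the points run from 0.13 for Alas2 to 2.48 for Hba-a2, and no adjusted p passed 0.05.

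Summing the copies gave the same picture at the level of the chains. In liver the log2 value was 0.68 ± 0.26 (SE) for the alpha sum and 0.97 ± 0.36 for the beta sum, each with an edgeR adjusted p of 0.992 (unadjusted p-values 0.0359 and 0.0348). Each sum had every knockout liver above every wild-type liver, at 10.7 ± 1.33 CPM (SD, n = 3) against 6.73 ± 2.56 for alpha. Same-numbered livers of the genotypes deviated together, and with the replicate number in the fit the count of called genes went from 0 to 2, neither of them a member. The unadjusted p was then under 0.05 and in the direction of the knockout for Hba-a1 (0.00869), Hbb-bs (0.0121) and Hbb-bt (0.041), 3 of the 4 members not admitted through the knockout libraries, beside 3.71% of all genes. These 3 are all globins, and Hbb-bs and Hbb-bt share reads, so they are not 3 independent results. The labels do not say that same-numbered animals of the genotypes are pairs. Hba-a2 and Slc4a1 entered through the knockout livers, so their unadjusted p-values in this fit (0.000631 and 0.000562) are descriptions and are not counted. Also as a description, Slc4a1 was higher in the knockout in each same-numbered pair, at 2.07 against 0.713 CPM, 3.31 against 1.18 and 0.849 against 0.233. The members' edgeR adjusted p-values in that fit were 0.721 for Hba-a1, 0.387 for Hba-a2, 0.74 for Hbb-bs, 0.765 for Hbb-bt, 0.843 for Alas2 and 0.375 for Slc4a1. In the fit without the block, the log2 fold changes moved with single libraries. Without wild-type liver replicate 2 they were 0.32 for Hba-a1, 0.66 for Hbb-bs and 0.67 for Hbb-bt, and without wild-type liver replicate 1 they were 0.91, 1.22 and 1.64. That of Slc4a1 ran from 1.04 without knockout liver replicate 2 to 2.13 without wild-type liver replicate 2.

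The difference of the genotype effect between the tissues was tested over all 12 libraries. Of 20141 genes 0 were called by edgeR (0.0%), with 489, or 2.43%, at an unadjusted p under 0.05, and DESeq2 called 1. The effect in liver minus that in brain was 0.97 ± 0.50 (SE) on the log2 scale for Hbb-bs, 0.30 ± 0.54 for Hba-a1, 0.57 ± 0.66 for Hbb-bt, 0.05 ± 0.33 for Alas2 and 0.93 ± 0.96 for Slc4a1. The unadjusted edgeR p was 0.079 for Hbb-bs. Hba-a2 reached the filter level in 3 knockout livers, 1 wild-type liver and 0 brain libraries, so no difference is read from it. The edgeR adjusted p was 1.00 for all 6 members. Single libraries moved these differences: Hba-a1 was 0.03 without knockout brain replicate 3 and 0.76 without knockout brain replicate 1. Hbb-bt was 0.29 without wild-type liver replicate 2 and 1.25 without wild-type liver replicate 1, and Slc4a1 was 0.30 without wild-type brain replicate 1 and 1.52 without wild-type liver replicate 2. A higher globin level in knockout liver is therefore not shown to be particular to liver.

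None of the wider gene lists held a gene that passed the adjusted threshold between genotypes in either tissue. In liver the 13 other heme synthesis genes had a median log2 fold change of -0.04, with 5 above 0 and 8 below. Alas1 was at 235 ± 104 CPM (SD, n = 3) in wild-type liver and 413 ± 96.3 CPM in knockout liver, a log2 value of 0.81 ± 0.34 (SE; edgeR adjusted p = 0.992), and 1.23 without wild-type replicate 3. Late erythroid genes had a median of 0.18 over 14 tested, with 3 at an unadjusted p under 0.05, beside 3.5% of all genes. The erythroid transcription and signalling genes had a median of 0.28 over 8, the clearance genes 0.49 over 7 and the red cell membrane genes 0.06 over 9. The clearance median rested on knockout liver replicate 2, without which it was -0.13, with Hp at -0.40 ± 0.18 (SE) in place of 0.68 ± 0.65 and Hpx, the heme carrier hemopexin, at -0.33 ± 0.16 in place of 0.58 ± 0.55. Without that library the late erythroid median was 0.10. With single libraries left out, the median ran from -0.10 to 0.03 for the heme synthesis genes and from -0.04 (without knockout replicate 1) to 0.18 (without knockout replicate 3) for the membrane genes, and that of the transcription and signalling genes was 0.45 without wild-type replicate 2. In brain the medians of these 5 lists lay between -0.06 and 0.04.

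Markers of other cells of the blood and vessels were set beside the liver globins. For comparison, 51.3% of all genes tested had a log2 value above 0 in knockout liver. The lymphocyte markers had 7 of 7 tested log2 values above 0 in knockout liver, with a median of 0.49 (0.29 without knockout replicate 2 and 0.32 without wild-type replicate 3), and sums of 5.17 to 10.4 CPM in wild-type liver and 8.78 to 10.4 CPM in knockout liver. Platelet markers summed to 4.23 to 4.67 CPM in wild-type and 4.55 to 5.56 CPM in knockout liver. Neutrophil markers summed to 0.272 to 0.883 CPM in wild-type and 0.536 to 4.33 CPM in knockout liver, and the latter maximum was knockout replicate 2. The 8 vascular endothelial markers summed to 158 to 186 CPM and 178 to 189 CPM, and 7 of 8 had a log2 value above 0, with a median of 0.11 (0.07 to 0.15 with a library left out). The ranges overlapped for all 4 lists, and the part of blood content in the globin values was not tested.

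Variation among replicates of a group was followed through the summed CPM of the 4 globins. Centred on the group means, the log2 values of Hba-a1 and Hbb-bs correlated with the sum to which they contribute at r = 0.99 and 0.98 over the 6 brain libraries and at 0.92 and 0.98 over the 6 liver libraries. The minor copies, which add little to the sum, stood at 0.33 in brain and -0.08 in liver for Hba-a2 and at 0.37 and 0.70 for Hbb-bt. Alas2 reached 0.70 in brain and 0.23 in liver, and Slc4a1 0.42 and -0.20. These are descriptions over few libraries, in which the 95th percentile of all genes of at least 1 CPM was 0.83 in brain and 0.74 in liver. The genes most like the globin sum were Hspb11, Gm38366, Gm17494, Gm13341 and Nmd3 among 16717 genes in brain (r = 1.00 after rounding), and Purg, Cldn2, Cd36, She and Cyb561d2 among 13327 in liver (r = 0.99). None of these is a gene of the erythroid lists, and neither Alas2 nor Slc4a1 exceeded the 95th percentile in either organ.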

How the data were processed

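The deposited values are the authors' expected counts for each gene in each library, without normalization. The submitters' processing notes name cutadapt, STAR and mm10; the counting tool, its use of strand and its annotation are not given in the sources used here. Per the labels' protocols, RNA was extracted with TRIzol, treated with DNase and made into stranded total RNA libraries for single-end sequencing. All 55450 gene identifiers matched GENCODE M21 (GRCm38), from which coordinates and transcripts come; promoters are RefSeq's, and Slc4a1 has no entry in that table. The members and gene lists (128 names in 12 lists, 125 entries in the table) were chosen with earlier results of these data known.

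Expected counts were rounded and tested with edgeR 4.0.16 (R 4.3.3): TMM, filterByExpr (minimum count 10, minimum total 15), robust quasi-likelihood F-test, Benjamini-Hochberg adjustment over all genes tested, threshold 0.05. Each contrast was fitted on its own 6 libraries and the tissue difference on all 12. The SE is the absolute log2 fold change over the square root of F. CPM use TMM sizes within a tissue; CPM per kb divides by the summed exon length. Coordinates are 1-based. The fits were tested on simulated counts. Over 12 pairs of replicates, the chi-square divided by its degrees of freedom was 27.2 to 228, and each library was counted as a replicate. The floor of 3 counts covers counting error only, since reads lacking molecular identifiers can be copies of a molecule.

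Replicate numbers 1 to 3 come from the sample titles. Deviations from the group means of same-numbered wild-type and knockout livers correlated at 0.333, 0.356 and 0.396 over 13327 genes, which was taken as pairing in liver. Named genes are the members, up to 4 genes of highest mean CPM per list and tissue, the 5 genes most correlated with the globin sum per tissue, and the checks Vaultrc5, Alb and Snap25; the other list genes named, with Apex2, were chosen after their values were seen. Alternatives were DESeq2 1.42.0 (size factors and Wald test), library totals, no filter beyond 1 count, a mean of at least 1 CPM, summed copies, all 12 libraries in 1 fit, the replicate block and each library left out.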

Additional observations from a re-analysis of the deposited data

How the results depend on the processing

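Of 378 values of single red cell genes under alternatives, 358 kept their direction and their side of the threshold, 5 lost the threshold and 15 changed sign. The 5 are all Slc4a1 between knockout brain and liver and stand above. Of the sign changes, 14 concern log2 values near 0: between genotypes in brain, Hba-a1 was -0.25 without knockout replicate 1; Hbb-bs was 0.00 with all 12 libraries in 1 fit, 0.04 with summed copies and 0.12, 0.04, 0.10 and 0.17 without wild-type replicate 1 or 2 or knockout replicate 2 or 3; and Alas2 was -0.06, -0.09 and -0.07 without wild-type replicate 3 or knockout replicate 1 or 2. The Alas2 difference between tissues was -0.15, -0.18, -0.08 and -0.02 without wild-type brain replicate 2, knockout brain replicate 3, wild-type liver replicate 3 or knockout liver replicate 2. The remaining one, Slc4a1 between wild-type brain and liver, was 0.18 with library totals. The count of genes called between genotypes in liver was 0 by edgeR, 10 by the DESeq2 Wald test, 4 with no filter beyond 1 count, 2 with the replicate block, and 0 to 1 with a replicate left out (1 without wild-type replicate 2). The count for the difference between tissues was 1 by the DESeq2 Wald test and 2 with the replicate block, and the cause was not tested. In brain, same-numbered libraries correlated at 0.65, 0.62 and -0.018, so the numbers were not taken as pairs; the block called 0 genes there and changed no call of a red cell gene in any comparison. Where leaving out a library left 2 in a group, the fit pooled the spread over both groups. The values of these 4 results ran from -0.25 to 0.53 for Hba-a1, -0.33 to 0.17 for Hbb-bs and -0.09 to 0.33 for Alas2 in brain, and from -0.18 to 0.24 for the Alas2 difference, over the fits without a replicate. Hba-a2 had 0 to 12.12 counts outside knockout liver, which leaves each of its fold changes imprecise.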
